A study of Mus musculus with 3 samples.

Results

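Rab proteins are small GTPases of the Ras superfamily that mark the membranes of a cell and direct the vesicles moving between them. Their genes were defined by symbol, as Rab followed by a number and an optional letter in the platform annotation, on probe sets assigned to a single gene. This gave 59 genes of 18193 on the array, carried by 132 probe sets, and the brightest probe set on average stood for each gene. The cells were mouse BMDCs, dendritic cells that had been differentiated out of bone marrow over 10 days with 10 ng/ml GM-CSF, a myeloid growth factor. The first culture, written LPS+8-Br-cAMP, was given 10 ng/ml lipopolysaccharide (LPS), a bacterial ligand of the receptor Tlr4, together with 100 µM 8-Br-cAMP, a cell-permeable analogue of cyclic AMP, for 3 h. The next was given 10 ng/ml LPS alone for 3 h, and the last was unstimulated, with no incubation time recorded. GM-CSF was common to all, no strain, genotype, sex or age is given in the labels, and no culture had 8-Br-cAMP without LPS. Each condition was hybridised to 1 Affymetrix Mouse 430 2.0 array, which leaves every difference without a replicate check, allows no test and limits the precision.

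A Rab protein is bound to GDP and held in the cytosol by GDP dissociation inhibitor (GDI) until an exchange factor loads it with GTP at a given membrane. There it recruits effectors such as tethers and motor adaptors, and a GTPase-activating protein (GAP) switches it off again. Attachment to the membrane needs geranylgeranyl lipids added by Rab geranylgeranyl transferase with the help of an escort protein. In dendritic cells and macrophages Rab proteins steer phagosomes towards lysosomes, carry Tlr4 to and from the cell surface, and take part in antigen processing and in the release of cytokines.

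Signals are given after each array was multiplied to a common trimmed mean, and are called scaled signals. A floor of 32.5 was set, equal to the largest of the medians of the scaled arrays. Genes that exceeded it on 1 or both arrays of a comparison are called measured. A log2 difference of 1 or more in size, which is 2-fold, was the threshold. Where 1 of the arrays was at the floor the difference is a bound, and the true size could be larger. The LPS+8-Br-cAMP array was the dimmest as deposited, with a median signal of 19.8, against 33.4 for LPS and 42.6 for unstimulated cells. All 11 dendritic cell markers, Itgax, Cd74 and the class II genes among them, were above the floor on all 3 arrays. They summed to 52220 with LPS+8-Br-cAMP, 40636 with LPS and 33110 unstimulated. All 6 macrophage markers were above the floor throughout, and summed to 15368 with LPS+8-Br-cAMP, 16880 with LPS and 16022 unstimulated. Their members parted between LPS+8-Br-cAMP and LPS. Mertk (-1.65), Adgre1 (-0.84) and Cd68 (-0.77) were lower, while Mrc1 (1.01), Fcgr1 (0.43) and Csf1r (0.14) were higher. The LPS+8-Br-cAMP culture also differed from the others in sex-linked, granulocyte and eosinophil transcripts and in some B cell and plasma cell transcripts. Xist read 1716 with LPS+8-Br-cAMP, 8.08 with LPS and 32.3 unstimulated, and Y-linked Eif2s3y 1.24 with LPS+8-Br-cAMP, 272 with LPS and 352 unstimulated. The 9 granulocyte markers found, all above the floor on every array, summed to 19850 with LPS+8-Br-cAMP, 40760 with LPS and 36866 unstimulated. Eosinophil markers summed to 500.0 with LPS+8-Br-cAMP, 1489 with LPS and 1395 unstimulated (3, 4 and 4 of 4 above the floor). B cell and plasma cell markers summed to 263 with LPS+8-Br-cAMP, 3043 with LPS and 4979 unstimulated (4, 6 and 6 of 7). Most of the sums with LPS and unstimulated was Ighm, Igha and Jchain. Ighm read 52.5 with LPS+8-Br-cAMP, 1495 with LPS and 3086 unstimulated. Cd79a and Ms4a1 were under the floor with LPS+8-Br-cAMP alone. Cd79b read 50 with LPS+8-Br-cAMP and 46.6 with LPS, and Pax5 was above the floor with LPS+8-Br-cAMP alone (51.9). Of 5 T cell markers 0 were above the floor with LPS+8-Br-cAMP, 1 with LPS and 2 unstimulated, and of 2 erythroid markers found 1, 0 and 1. Between this culture and either other one, an effect of 8-Br-cAMP and these differences cannot be told apart.

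With LPS against unstimulated cells, 49 Rab genes were measured. Rab20, Rab32 and Rab38 were at least 2-fold higher (3 of 49, 6.12%), and Rab7b, Rab31, Rab3a and Rab40c at least 2-fold lower (4 of 49, 8.16%). Over all 12283 measured genes the shares were 6.64% higher and 13.0% lower, so Rab genes passed 2-fold no more often than genes in general. The median Rab gene differed by 0.061 on the log2 scale, against -0.21 for all measured genes, and 51.0% of Rab genes lay within 0.5 of 0, against 50.7% of all genes. The split turned with the scaling, being 3 higher and 3 lower under quantile normalization, 4 and 3 under median scaling and 3 and 6 as deposited. As a yardstick for single genes, the error of 1 probe set, taken from pairs of probe sets of 1 gene over 4029 genes, was 0.45. It does not cover the spread between cultures. Fewer cells of a type and less RNA per cell cannot be told apart in these bulk samples.

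**Figure D1:**
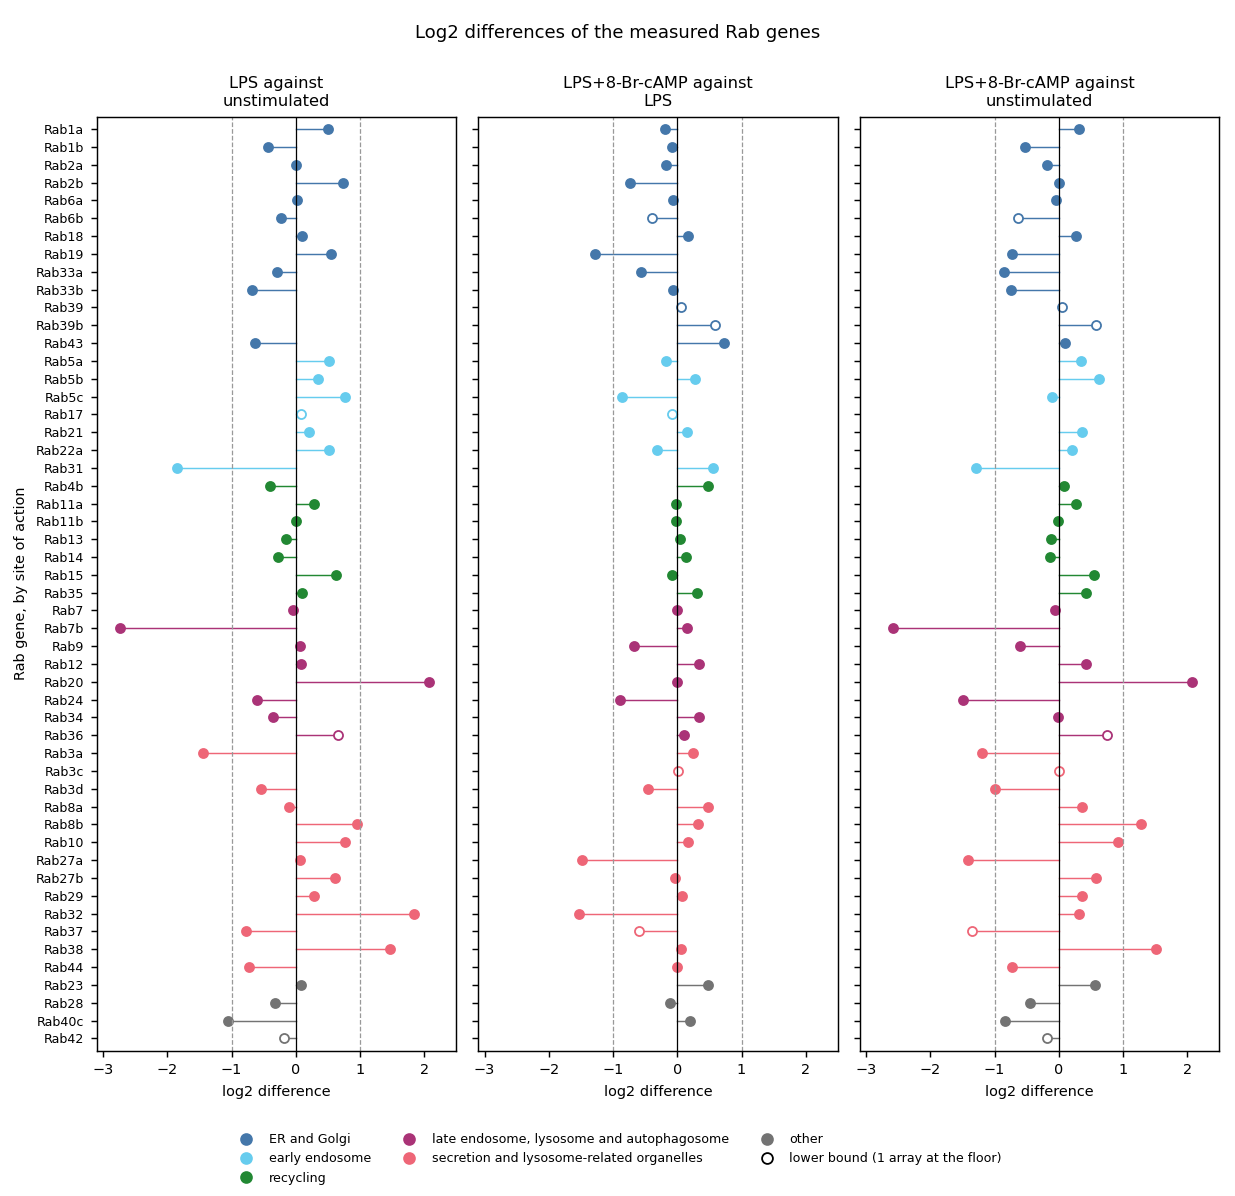
Log2 differences (x axes) of the 52 Rab genes measured in at least 1 comparison, grouped by site of action (colours), with 2-fold marked by dashed lines and open points for lower bounds. Rab7b (-2.74) and Rab20 (2.07) stand farthest out with LPS, and Rab32 (-1.53), Rab27a (-1.48) and Rab19 (-1.28) with 8-Br-cAMP added.

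The leading Rab gene with LPS was Rab20, whose product sits on endosomes and phagosomes and takes part in phagosome maturation in macrophages. Its only probe set read 377 with LPS+8-Br-cAMP, 377 with LPS and 90.0 unstimulated. Both cultures with LPS were thus well above the unstimulated culture and equal to each other, and the log2 difference of LPS against unstimulated was 2.07, or 4.19-fold. Rab32, a Rab of lysosome-related organelles and mitochondria that restricts intracellular bacteria in macrophages, read 552 with LPS+8-Br-cAMP, 1591 with LPS and 445 unstimulated. It was high in the LPS culture alone, 3.57-fold above unstimulated cells (1.84), and has a single probe set too. Rab38, the close relative of Rab32 known from melanosome formation, read 105 with LPS+8-Br-cAMP, 101 with LPS and 36.5 unstimulated, 2.77-fold higher with LPS (1.47). The other Rab38 probe set did not show this, reading 94.5 with LPS+8-Br-cAMP, 51.1 with LPS and 53.7 unstimulated (-0.069 with LPS).

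Further Rab genes were higher with LPS by less than 2-fold. Rab8b, which acts in transport to the cell surface, read 4743 with LPS+8-Br-cAMP, 3791 with LPS and 1951 unstimulated, a difference of 0.96 with LPS that stopped just short of 2-fold. Rab10, which carries Tlr4 to the surface of macrophages, read 832 with LPS+8-Br-cAMP, 747 with LPS and 439 unstimulated (0.77). All 3 Rab10 probe sets were higher with LPS, by 0.77, 0.82 and 0.62. Among endosomal members, Rab5c differed by 0.76 and Rab5a by 0.52, each on its only probe set. Rab5b differed by 0.35, but by -0.078 on its other probe set. Rab22a differed by 0.51, but its other 3 probe sets went the other way, by -0.64, -0.55 and -0.48. The remaining members among the 10 highest with LPS were Rab2b (0.73), Rab36 (0.66, a bound), Rab15 (0.63) and Rab27b (0.61). The other 4 Rab2b probe sets gave -0.64, 0.16, -0.55 and -0.50, so its direction was not shared among its probe sets. Nor was that of Rab27b, whose other 3 probe sets gave -0.025, 0.11 and a bound of -0.63.

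Rab7b was the lowest Rab gene with LPS. Its product is a late endosomal Rab that lowers Tlr4 and Tlr9 signalling by sending these receptors to lysosomes. It read 71.6 with LPS+8-Br-cAMP, 64.5 with LPS and 432 unstimulated, 6.70-fold lower with LPS (-2.74). The other 2 probe sets were lower too, at 37.8 with LPS against 153 unstimulated and, under the floor with LPS, at 7.18 with LPS against 57.1 unstimulated. Rab31, an early endosome and trans-Golgi Rab, read 228 with LPS+8-Br-cAMP, 155 with LPS and 557 unstimulated, a difference of -1.85 with LPS, and its other probe set gave -1.20. Both genes were lower in both LPS cultures than in unstimulated cells by every probe set.

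Rab3a, best known from synaptic vesicle release, read 106 with LPS+8-Br-cAMP, 89.9 with LPS and 245 unstimulated (-1.44 with LPS). Its brightest probe set is of the _x_at kind, which can bind related transcripts, and its other probe set was above the floor only in unstimulated cells. Rab40c, which joins a ubiquitin ligase complex, read 94.1 with LPS+8-Br-cAMP, 81.8 with LPS and 169 unstimulated (-1.05), only just past 2-fold. Below 2-fold followed Rab37 (-0.77), Rab44 (-0.73), Rab33b (-0.68), Rab43 (-0.64), Rab24 (-0.61) and Rab3d (-0.54), which complete the 10 lowest. Both other Rab43 probe sets went the other way (0.061 and 0.41), and the other Rab37 probe set gave 0.02. Those of Rab3d gave -0.67, 0.25 and -0.17, so they disagreed, while that of Rab24 gave -0.99.

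**Figure D2:**
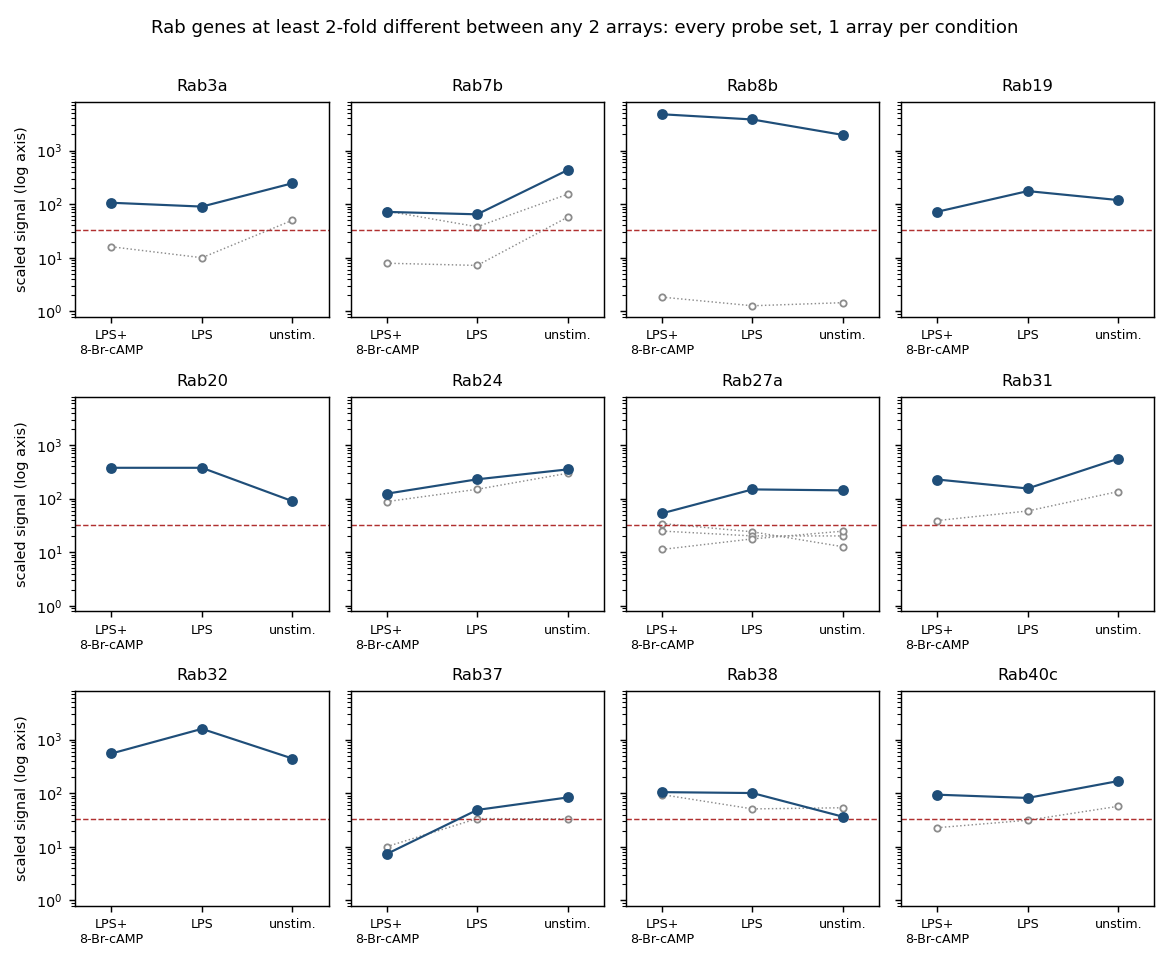
Scaled signal (log axis) on each array for the 12 Rab genes at least 2-fold different in any comparison, with the brightest probe set as filled points, other probe sets as open points and the floor of 32.5 dashed. Rab20 reads 377 in both LPS cultures against 90.0 unstimulated, while Rab32 is high with LPS alone (1591) and reads 552 with LPS+8-Br-cAMP and 445 unstimulated.

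Promoters are shown for the 4 genes with the largest differences among those matched in the RefSeq promoter table (build GRCm38.p6), because Rab20 and Rab32 shared a direction with LPS and parted with 8-Br-cAMP, and Rab31 and Rab24 were lower in both LPS cultures. Of the 59 Rab genes, 48 had an entry. Each sequence is the 250 bases before the annotated start, and capitals mark matches to the motifs named below.
Rab20, chr8:11478641-11478890, minus strand: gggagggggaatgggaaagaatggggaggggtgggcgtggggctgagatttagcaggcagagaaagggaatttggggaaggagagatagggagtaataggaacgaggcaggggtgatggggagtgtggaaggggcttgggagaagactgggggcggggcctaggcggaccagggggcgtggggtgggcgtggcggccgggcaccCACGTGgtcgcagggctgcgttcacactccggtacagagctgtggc
Rab32, chr10:10558208-10558457, minus strand: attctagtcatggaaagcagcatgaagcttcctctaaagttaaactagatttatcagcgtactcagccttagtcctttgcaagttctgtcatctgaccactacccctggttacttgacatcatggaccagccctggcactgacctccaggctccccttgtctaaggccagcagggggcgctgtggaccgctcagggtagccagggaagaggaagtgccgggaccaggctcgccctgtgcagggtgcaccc
Rab31, chr17:65772753-65773002, minus strand: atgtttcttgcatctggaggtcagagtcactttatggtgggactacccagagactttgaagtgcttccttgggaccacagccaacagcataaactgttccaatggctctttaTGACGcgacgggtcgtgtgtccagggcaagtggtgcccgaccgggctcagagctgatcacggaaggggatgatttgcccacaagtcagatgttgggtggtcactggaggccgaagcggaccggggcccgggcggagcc
Rab24, chr13:55321981-55322230, minus strand: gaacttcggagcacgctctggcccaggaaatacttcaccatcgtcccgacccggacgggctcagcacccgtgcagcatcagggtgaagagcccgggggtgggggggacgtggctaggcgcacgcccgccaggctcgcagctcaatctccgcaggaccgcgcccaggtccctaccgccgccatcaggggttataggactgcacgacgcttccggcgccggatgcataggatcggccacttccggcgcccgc

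The motifs searched on both strands of the table's promoters, which reach a little past the start, were the cyclic AMP response element (CRE) TGACGTCA, its core TGACG, AP-1 TGANTCA, the kB consensus, the interferon-stimulated response element (ISRE) and the E-box CACGTG. CRE matches also hold the core, and the kB and ISRE motifs were searched as degenerate consensus sequences. The Rab20 window held an E-box, found in 7.15% of all 32851 promoters and in 6 of the 60 Rab promoters. Rab31 held the CRE core, found in 20.8% of all promoters and in 26 of 60 Rab promoters (43.3%). Rab32 held none of the motifs, and the E-box and CRE core of Rab24 lay across or past the start, outside the bases shown. The full CRE occurred in Rab5a and Rab25, where all promoters had it in 1.79%, and the ISRE in Rab19 alone (3.44% of all promoters). Matches to the kB consensus were in Rab11a, Rab15 and Rab28, and in 5.80% of all promoters, and AP-1 matches in Rab15, Rab34 and Rab39b, and in 7.81%. A match describes the letters and says nothing about binding.

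Close relatives differed from each other with LPS by their brightest probe sets. Rab7b differed from Rab7, the main Rab of late endosomes, by -2.69 on the log2 scale (-2.74 against -0.050), where the error of such a difference between single probe sets was 0.63. Rab31 differed from Rab22a by -2.35, a gap that is smaller on the other 3 Rab22a probe sets given above. Rab8b differed from Rab8a by 1.06. Rab32 and Rab38 differed by 0.37 with LPS, within the error. When 8-Br-cAMP was added to LPS they parted, by -1.58 (Rab32 -1.53, Rab38 0.051) where the error was 0.68. Rab27a differed from Rab27b in that comparison by -1.45. The members of the Rab5 set, which organise early endosomes, stayed within 0.40 of each other with LPS, while Rab5c minus Rab5b was -1.13 with 8-Br-cAMP added. The other Rab5b probe set gave -0.91, a bound, in that comparison, close to the -0.86 of Rab5c, so on it this pair did not part.

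**Figure D3:**
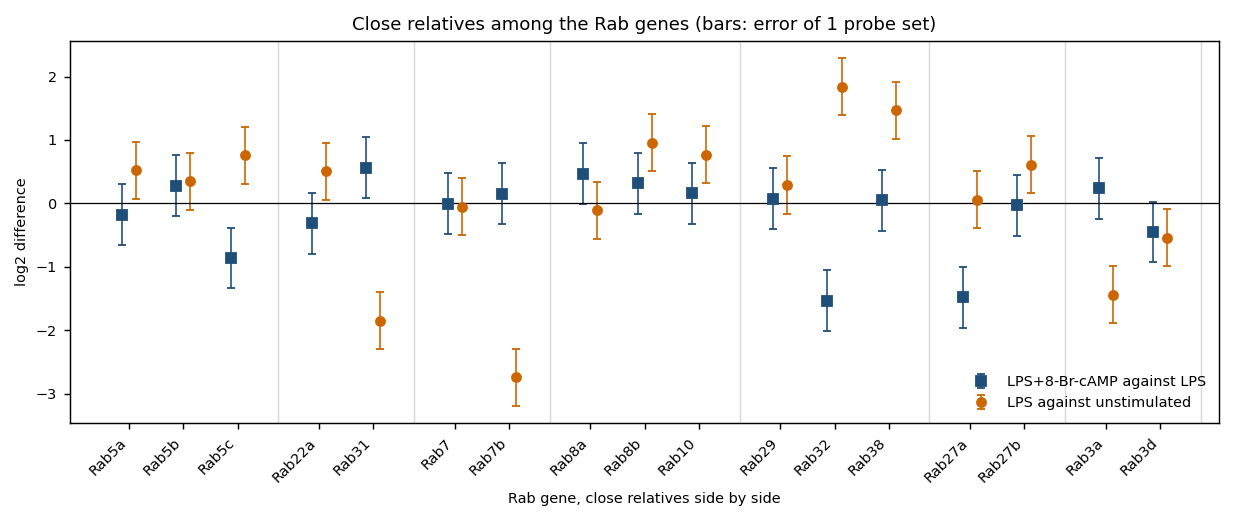
Log2 differences (y axis) of closely related Rab genes by their brightest probe sets, squares for LPS+8-Br-cAMP against LPS and circles for LPS against unstimulated, with bars of 1 error of 1 probe set (0.48 and 0.45). Rab7b lies at -2.74 with LPS where Rab7 lies at -0.050, and Rab32 at -1.53 with 8-Br-cAMP added where Rab38 lies at 0.051.

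With LPS+8-Br-cAMP against LPS, 51 Rab genes were measured. The cultures also differed in the sex-linked and cell type transcripts given above, so an effect of the analogue cannot be told apart from those differences. Rab32, Rab27a and Rab19 were at least 2-fold lower (3 of 51, 5.88%) and 0 were at least 2-fold higher, where 5.81% of 12572 measured genes were lower and 6.49% higher. The median Rab gene differed by -0.0049, against 0.049 for all genes, and 76.5% of Rab genes lay within 0.5 of 0, against 59.4% of all genes, without matching for signal. In the unscaled signals 10 Rab genes were at least 2-fold lower and 0 higher, with the whole array dimmer. This comparison and the last share the LPS array, so a high reading there lifts the one difference and lowers the other.

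Rab32 was 2.88-fold lower with LPS+8-Br-cAMP than with LPS (-1.53), at 552 against 1591, which left it near the unstimulated 445. In contrast Rab20 differed by -0.0025 and Rab38 by 0.051. Rab32 thus lay below both under every scaling tried. In the unscaled signals the differences were -2.34 for Rab32, -0.81 for Rab20 and -0.76 for Rab38.

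Rab27a, which docks secretory granules and in dendritic cells delivers oxidase to phagosomes, read 53.3 with LPS+8-Br-cAMP, 149 with LPS and 143 unstimulated. It was 2.80-fold lower than with LPS (-1.48) by its brightest probe set, and its other 3 probe sets were near or under the floor on all arrays, from 11.3 to 34.4. Unc13d, the Rab27 effector that primes granules for release, went the same way, at 23.2 with LPS+8-Br-cAMP, 77.8 with LPS and 142 unstimulated. So did the granulocyte markers, 9 of 9 being lower with LPS+8-Br-cAMP than with LPS, among them the neutrophil protease gene Elane, at 79.7 with LPS+8-Br-cAMP and 414 with LPS, and Lcn2, at 4442 with LPS+8-Br-cAMP and 5419 with LPS. Their part in the Rab27a result was not tested. Taken as the mean over its 4 probe sets, Rab27a differed by -0.35. Rab19, a little-studied Golgi Rab with 1 probe set, read 72.0 with LPS+8-Br-cAMP, 175 with LPS and 119 unstimulated (-1.28).

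Below 2-fold, the lowest members with 8-Br-cAMP added were Rab24 (-0.89), a Rab of autophagosomes, Rab5c (-0.86), Rab2b (-0.73) and Rab9 (-0.68), which returns mannose 6-phosphate receptors from late endosomes to the Golgi. Rab37, a Rab of mast cell granules and other secretory granules, followed at 7.37, under the floor, against 48.9 with LPS (-0.59, a bound). Rab33a (-0.57) and Rab3d (-0.45) complete the 10 lowest. The other Rab2b probe sets gave 0.12, -0.19, 0.66 and -0.17 (a bound). Those of Rab3d gave -0.49, 0.36 and -1.21 (a bound), so neither gene had a shared direction. That of Rab24 gave -0.76. Rab9, Rab33a and Rab39b lie on the X chromosome, and the part of the Xist difference between these cultures in their results was not tested. Of 5 mast cell markers 2 were above the floor on each array, with sums of 236 with LPS+8-Br-cAMP, 264 with LPS and 217 unstimulated. Mcpt4 and Tpsb2 were under the floor throughout, and Cpa3 read 29.1 with LPS+8-Br-cAMP, 128 with LPS and 119 unstimulated. Kit went the other way, at 141 with LPS+8-Br-cAMP, 88 with LPS and 55.9 unstimulated. Cma1 was above the floor with LPS+8-Br-cAMP alone, at 39.5 against 30.8 with LPS and 17.3 unstimulated. The part of mast cell or granulocyte transcripts in the Rab37 result was not tested. The highest member with 8-Br-cAMP added was Rab43, which takes part in cross-presentation in dendritic cells. It read 204 with LPS+8-Br-cAMP, 123 with LPS and 191 unstimulated (0.73). Its other probe sets gave 0.80 and -0.76, so they disagreed. After it came Rab39b (0.58, a bound), Rab31 (0.56), Rab23 (0.48), Rab8a and Rab4b (0.47 each), Rab34, Rab12 and Rab8b (0.34, 0.33 and 0.32) and Rab35 (0.31). Other probe sets went the other way for Rab31 (-0.60), Rab34 (-0.83) and 1 of 2 for Rab23 (-1.29, a bound). Rab10 differed by 0.16 by its brightest probe set, and by 1.17 and 0.57 by its others. Rab12 differed by 0.33, but by -2.06, a bound, on its other probe set, at 18.2 with LPS+8-Br-cAMP and 136 with LPS.

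With LPS+8-Br-cAMP against unstimulated cells, Rab20, Rab38 and Rab8b were at least 2-fold higher (3 of 51) and Rab7b, Rab24, Rab27a, Rab37, Rab31 and Rab3a at least 2-fold lower (6 of 51). Over 12793 measured genes these shares were 9.36% higher and 15.8% lower, and the Rab shares were 5.88% and 11.8%. The split was 2 higher and 5 lower under quantile normalization, and 0 and 25 in the unscaled signals. Both of these arrays also enter the comparisons above. Rab24 read 124 with LPS+8-Br-cAMP, 230.0 with LPS and 352 unstimulated. It was lower with LPS than unstimulated (-0.61) and lower again with 8-Br-cAMP added (-0.89), and passed 2-fold only between LPS+8-Br-cAMP and unstimulated (-1.50). The other Rab24 probe set read 88.2 with LPS+8-Br-cAMP, 149.8 with LPS and 298 unstimulated (-1.76). Rab8b was higher in both comparisons, by 0.96 and 0.32, and by 1.28 against unstimulated, though its other probe set lay under the floor on all arrays, at 1.27 to 1.84. The 0.32 against LPS was within the error of 1 probe set (0.48) and turned with the scaling. It was 0.27 under median scaling, 0.11 under cyclic loess, 0.055 under quantile normalization and -0.49 as deposited. Rab37 was at least 2.57-fold lower, while its other probe set was at the floor or close to it on every array.

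Grouped by the membranes they serve, none of the 11 measured Rab genes of the endoplasmic reticulum and Golgi passed 2-fold with LPS, where 6.64% of all genes were higher and 13.0% lower. Their differences ran from -0.68 to 0.73, with a median of -0.0031. With 8-Br-cAMP added 1 of 13 was lower, Rab19, and 0 were higher (median -0.088), beside 5.81% lower and 6.49% higher of all genes. Rab1a, which acts between the endoplasmic reticulum and the Golgi, read 2955 with LPS+8-Br-cAMP, 3381 with LPS and 2384 unstimulated, and Rab6a, which acts at the Golgi, 743 with LPS+8-Br-cAMP, 780.0 with LPS and 766 unstimulated. Of the 7 early endosome members 6 lay above 0 with LPS by the brightest probe set, none of them past 2-fold, and Rab31 below. Their median was 0.35, against -0.21 for all genes. The other Rab22a probe sets (-0.64, -0.55 and -0.48) and the other Rab5b probe set (-0.078) lay below 0. Rab17 was a bound of 0.076, near the floor. None of the 7 was past 2-fold with 8-Br-cAMP added, to be read beside the same 5.81% and 6.49%.

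In the recycling group, which returns cargo to the cell surface, none of 7 measured members passed 2-fold in any comparison by its brightest probe set. Of all genes 6.64% were higher and 13.0% lower with LPS, 6.49% and 5.81% with 8-Br-cAMP added, and 9.36% and 15.8% for LPS+8-Br-cAMP against unstimulated, so few or none of 7 past 2-fold is near the background. Their differences ran from -0.40 to 0.63 with LPS and from -0.083 to 0.47 with 8-Br-cAMP added. Rab11a, the recycling endosome Rab that brings Tlr4 to phagosomes, read 1203 with LPS+8-Br-cAMP, 1222 with LPS and 1006 unstimulated. Rab35 read 365 with LPS+8-Br-cAMP, 294 with LPS and 274 unstimulated. Rab14, a Rab of early and recycling endosomes, read 1414 with LPS+8-Br-cAMP, 1289 with LPS and 1562 unstimulated. All 6 Rab14 probe sets measured with LPS were lower than unstimulated, from -0.69 to -0.27, but with 8-Br-cAMP added they parted, from -1.13 to 0.13. The 8 late endosome, lysosome and autophagosome members held the extremes in both directions with LPS, Rab20 and Rab7b, around a median of 0.0092. In the group of secretion and lysosome-related organelles, with 12 measured with LPS, 2 were higher, Rab32 and Rab38, and 1 lower, Rab3a. These few genes are to be read beside the same 6.64% and 13.0%. The other Rab38 probe set gave -0.069, and Rab3a was read on an _x_at probe set. With 8-Br-cAMP added 0 of 13 were higher and 2 lower, Rab32 and Rab27a, beside 6.49% and 5.81% of all genes.

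Across the 44 Rab genes above the floor on all 3 arrays, the log2 range over the arrays had a median of 0.62, against 0.80 for all 9078 such genes. It was under 0.3 in 8 of them (18.2%), against 10.5% of all genes, by the brightest probe set. These were Rab11b (0.015), Rab7 (0.057), Rab6a (0.070), Rab13, Rab2a, Rab18, Rab14 and Rab11a. Rab7 read 2754 with LPS+8-Br-cAMP, 2769 with LPS and 2866 unstimulated. Of these 8 genes 7 had other probe sets above the floor on all arrays, 14 in all, and only 2 of the 14, 1 each of Rab2a and Rab6a, had a range under 0.3. Those of Rab11a and Rab18 had ranges of 0.75 each, and that of Rab7 one of 0.54, while that of Rab11b read 52.8 with LPS+8-Br-cAMP, 52.4 with LPS and 105 unstimulated. The flatness also depended on the scaling, since Rab7 differed by -0.53 under quantile normalization and -1.15 as deposited for LPS+8-Br-cAMP against unstimulated.

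A further 8 members, Rab3c, Rab6b, Rab17, Rab36, Rab37, Rab39, Rab39b and Rab42, were above the floor on some arrays only, and 7 were under it on all 3, which were Rab3b, Rab4a, Rab9b, Rab25, Rab26, Rab30 and Rab40b, with no scaled signal over 30.8. Several of these are known from epithelia (Rab17, Rab25) or from neurons and exocrine cells (Rab3b, Rab3c, Rab26). Where 2 probe sets of a Rab gene were above the floor on both arrays, they gave the same sign in 15 of 24 genes with LPS, in 11 of 21 with 8-Br-cAMP added and in 13 of 22 for LPS+8-Br-cAMP against unstimulated. Small differences of single Rab genes are therefore within the disagreement between probe sets.

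The proteins that load, extract and read out Rab GTPases were followed in a list of 135 genes, of which 128 were found. With LPS, 7 of 115 measured were at least 2-fold higher (6.09%, against 6.64% of all genes) and 20 lower (17.4%, against 13.0%), with a median of -0.42, against -0.21 for all genes. Exchange factors had 3 of 30 higher (10.0%) and 6 lower (20.0%, median -0.15), and GAPs 0 of 32 higher and 6 lower (18.8%, median -0.57), to be read beside the same 6.64% and 13.0%. The extremes were exchange factors. Dennd3, an exchange factor of Rab12, read 559 with LPS+8-Br-cAMP, 1078 with LPS and 174 unstimulated (2.63 with LPS). Rabgef1, the exchange factor of Rab5, read 1025 with LPS+8-Br-cAMP, 540.5 with LPS and 186 unstimulated (1.54 with LPS and a further 0.92 with 8-Br-cAMP added). Its other 2 probe sets gave 1.89 and 1.70 with LPS, and 1.06 and 0.65 with 8-Br-cAMP added. At the other end Rab3il1 was under the floor with LPS, at 14.9 against 242 unstimulated (at least 7.44-fold lower), and Dennd4c, an exchange factor of Rab10, read 60.3 with LPS+8-Br-cAMP, 80.8 with LPS and 318 unstimulated (-1.98).

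Among Rab11 effectors, Rab11fip1 read 503 with LPS+8-Br-cAMP, 293 with LPS and 91.1 unstimulated (1.68 with LPS), while Rab11fip5 read 171 with LPS+8-Br-cAMP, 199.7 with LPS and 748 unstimulated (-1.91). The other probe set of each went the same way with LPS, while Rab11a and Rab11b differed by 0.28 and 0.0023 by their brightest probe sets. By the second brightest, Rab11a differed by 0.68, and Rab11b read 52.4 with LPS against 105 unstimulated. Mical1, a Rab-binding enzyme that oxidises actin, read 11.7 with LPS+8-Br-cAMP, 40.8 with LPS and 238 unstimulated (-2.54). The escort protein gene Chml was at least 3.31-fold lower with LPS, a difference its other probe set did not show (0.0011). A list of 6 genes took in Rabif and Rabac1 besides those of prenylation and escort. With LPS 3 of these 6 were lower and the median was -0.88, against 13.0% and -0.21 for all genes. The lower ones were Chml, Rabggtb, only just past 2-fold (-1.04), and Rabif, at 91 with LPS against 182 unstimulated. The share thus rested on genes near the threshold and on Chml, whose probe sets disagreed. Hps1 and Hps4, whose products together form the exchange factor of Rab32 and Rab38, read 235 and 73.9 with LPS, against 356 and 154 unstimulated (-0.60 and -1.06). Their direction was opposite to that of Rab32 and of the brightest Rab38 probe set, while the other Rab38 probe set gave -0.069. Hps1 was read on an _x_at probe set. The Hps1 and Hps4 pair was chosen after its values were seen.

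**Figure D4:**
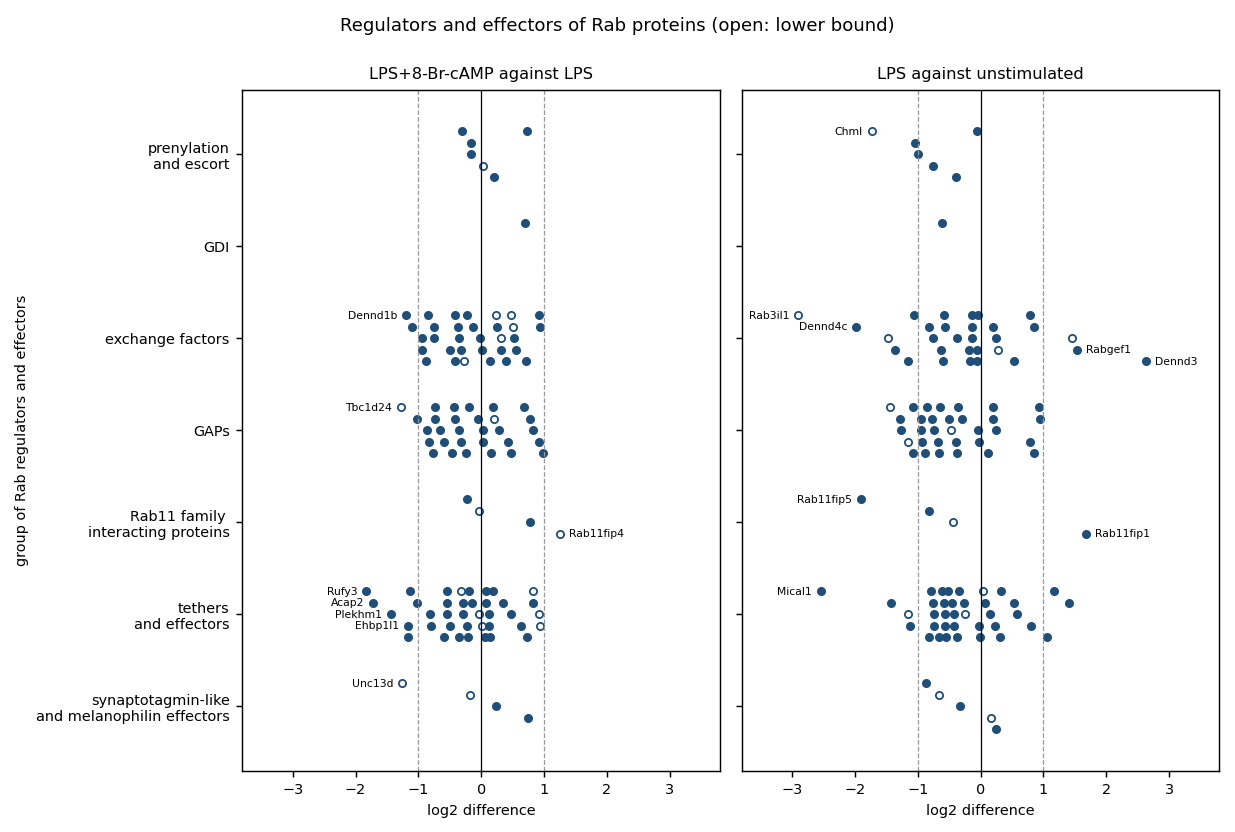
Log2 differences (x axes) of the measured Rab regulators and effectors in each group, with 2-fold as dashed lines, open points for lower bounds and the 8 largest differences named. With LPS Dennd3 lies highest (2.63) and Rab3il1 lowest (-2.90). With 8-Br-cAMP added 12 of 116 genes lie at least 2-fold lower (10.3%, against 5.81% of all genes) and 1 higher (0.862%, against 6.49%).

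With 8-Br-cAMP added to LPS, the median of 116 measured regulators and effectors was -0.16, against 0.049 for all genes. Of these 116, 1 was at least 2-fold higher (0.862%, against 6.49% of all genes) and 12 lower (10.3%, against 5.81%). The one above was Rab11fip4, at 77.5 with LPS+8-Br-cAMP against 26.5, under the floor, with LPS. Tethers and effectors had 7 of 39 lower (17.9%). Rufy3 read 71.0 with LPS+8-Br-cAMP and 252 with LPS (-1.83). Of its other 5 probe sets 4 were measured, with -1.72, -1.58 (a bound), -1.18 and 0.36. Acap2, an effector of Rab35, read 162 with LPS+8-Br-cAMP and 533 with LPS (-1.72, and -0.66, a bound, by its other probe set), and Plekhm1, a Rab7 effector at lysosomes, 56.4 with LPS+8-Br-cAMP and 153 with LPS (-1.44, but 0.45). Dennd1b, an exchange factor of Rab35, gave -1.19 and -1.12 on the 2 of its 4 probe sets that were above the floor. Tbc1d24 (at least 2.43-fold lower, but 0.70, a bound, by the second brightest of its 3 probe sets), Unc13d (at least 2.39-fold lower) and Ehbp1l1 (-1.17, but -0.39 by its other probe set) were the rest of the 8 largest. For LPS+8-Br-cAMP against unstimulated the median was -0.51, against -0.12 for all genes. Of 118 measured, 8 were higher (6.78%, against 9.36% of all genes) and 40 lower (33.9%, against 15.8%). The largest were Mical1 (at least 7.31-fold lower), Rab11fip1 (2.47), Rabgef1 (2.46), Rab3il1 (-2.43), Dennd4c (-2.40), Inpp5b (2.23), Rab11fip5 (-2.13) and Unc13d (at least 4.35-fold lower). Inpp5b, an inositol phosphatase that binds Rab proteins, read 2159 with LPS+8-Br-cAMP, 1216 with LPS and 459.5 unstimulated.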

How the data were processed

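Each condition gave 1 biotinylated cRNA, per the labels' protocols. The authors deposited 1 linear signal intensity per probe set, computed by MAS5 according to the submitters' processing notes, with version and target value not given in the sources used here. After leaving out 64 control probe sets, 45037 remained. Each array was multiplied so that its mean, trimmed by 2% at each end, equalled the average of the 3 (factors 1.63 for LPS+8-Br-cAMP, 0.929 for LPS and 0.763 for unstimulated), floored at 32.5 and taken to log2. GEO's platform annotation named the genes, and all 59 Rab symbols matched the RefSeq gene table by gene ID. Named were Rab genes past 2-fold, the 10 highest and 10 lowest in each comparison, the 10 brightest, 10 endosomal and secretory Rabs fixed by name, and the 8 largest regulators or effectors past 2-fold. The Rab genes, lists, markers and motifs were chosen with earlier results of these data known. The steps were tested on simulated data. Python 3.11.15, pandas 2.3.3, numpy 2.4.6, R 4.3.3 and limma 3.58.1 (cyclic loess only) were used. Alternatives were other scalings, unscaled signals, other floors, a pseudocount of 16, the mean over probe sets, only _at probe sets and thresholds of 1.5-fold and 3-fold.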

Additional observations from a re-analysis of the deposited data

How the results depend on the processing

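No paired analysis was possible because each condition had 1 array, and for the same reason no array could be left out. No difference past 2-fold of a Rab gene changed sign under up to 9 alternatives of scaling, floor and probe set. The counts of regulators and effectors were not recomputed under them. Rab7b and Rab31 (both with LPS and with LPS+8-Br-cAMP against unstimulated), Rab20 and Rab32 with LPS, Rab32 with 8-Br-cAMP added and Rab24 with LPS+8-Br-cAMP against unstimulated stayed past 2-fold in all 9. Others did not, such as Rab27a with 8-Br-cAMP added, which ran from -1.91 to -0.35, Rab38 with LPS (0.70 to 1.71) and Rab40c with LPS (-1.33 to -0.63, past 2-fold in 3 of 9). Also short of 2-fold in some were Rab19 with 8-Br-cAMP added (-2.09 to -0.68), Rab3a with LPS (-1.73 to -0.62), and, for LPS+8-Br-cAMP against unstimulated, Rab8b (0.19 to 1.29), Rab20 (0.97 to 2.27), Rab38 (0.43 to 1.82), Rab37 (-3.08 to -0.70), Rab3a (-2.30 to -0.62) and Rab27a (-2.13 to -0.34). Of 93 recomputed counts and medians of Rab genes 70 stayed within 1.5 times of the count, or within the error of 1 probe set for a median. The others follow, and the cause was not tested. For LPS against unstimulated, the 3 higher genes became 10 at 1.5-fold, and the 4 lower became 9 at 1.5-fold, 2 at 3-fold and 7 with a floor at the 25th percentile. With LPS+8-Br-cAMP against LPS, the 0 higher became 1 at 1.5-fold, 1 with the pseudocount and 3 with the floor at the 25th percentile. The 3 lower became 8 at 1.5-fold, 0 at 3-fold, 5 with the floor at the 25th percentile, 1 with it at the 75th, 5 with the pseudocount and 10 with the signals as deposited, where the median was -0.76 against -0.0049. For LPS+8-Br-cAMP against unstimulated, the 3 higher became 6 at 1.5-fold, 1 at 3-fold and 0 as deposited, and the 6 lower became 14 at 1.5-fold, 1 at 3-fold, 10 with the floor at the 25th percentile, 3 with the mean over probe sets and 25 as deposited, where the median was -1.02 against -0.00071. Unscaled signals carry the lower brightness of the LPS+8-Br-cAMP array, whose trimmed mean was 63.2, against 111 for LPS and 135 unstimulated, and over all genes only 3.18% of those past 2-fold in LPS+8-Br-cAMP against LPS were then higher, against 52.8% after scaling. For LPS against unstimulated the share higher was 33.8% after scaling, 43.4% under quantile normalization, 45.5% under cyclic loess and 17.8% as deposited, and for LPS+8-Br-cAMP against unstimulated 37.3%, 46.8%, 48.3% and 4.54%.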
